A study of Mus musculus with 6 samples.

Results

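The genes described here encode the machinery of mitosis, from the cyclins that open it to the motors and condensins that divide the chromosomes, in mouse leukemias with and without a conditional Chd7 allele. The list holds 47 genes chosen for their function, with earlier results of these data known. Of these, 45 had a probe set annotated to that gene symbol alone, and the probe set with the highest mean was used, out of 22180 genes named on the array. Ccnb1 and Ncapg were not measured by such a probe set and are not analysed here. All 45 measured members passed the filter on low values and were tested among 15526 genes.

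Total RNA of c-Kit+ leukemic cells sorted from spleen was hybridised to Affymetrix whole-transcript arrays in 6 samples, 3 per genotype. The control leukemias were Mx1-Cre, Cbfb+/56M. The other leukemias were Chd7f/f, Mx1-Cre, Cbfb+/56M and are called Chd7f/f here. Cbfb+/56M is a conditional knock-in allele that makes the CBFB-SMMHC fusion protein found in human leukemias with inv(16), and Mx1-Cre is a recombinase that the interferon response to pIpC switches on in blood-forming and other interferon-responsive cells. Mice of both genotypes were given pIpC and the mutagen ENU, and cells were taken at the end stage of leukemia. Chd7 encodes a chromatin remodelling ATPase. The age of the mice is not given in the labels used here, and the samples of a genotype are called independent with no word on the number of mice, so the p-values speak only for the variation among these 6 arrays. Levels are given as log2 RMA, on which a difference of 1 is a factor of 2, and the number of arrays limits their precision.

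Cells enter mitosis when cyclin A and cyclin B activate the kinase CDK1. Polo-like and Aurora kinases then build the spindle, condensins compact the chromosomes, and kinetochores attach chromosomes to microtubules while the spindle checkpoint holds back the anaphase-promoting complex. Most of these genes are transcribed in a wave in G2 and mitosis, in which the MuvB complex together with B-MYB and FOXM1 acts through promoter elements called CHR, while the related DREAM complex represses many of them in resting cells. The messenger level of these genes is therefore widely used as a measure of how many cells of a sample are dividing. In bulk RNA, fewer dividing cells and less of a messenger per cell cannot be told apart.

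The labelled cell type was checked first. Kit was at 11.72, 12.12 and 11.68 in the control and at 12.48, 11.69 and 11.90 in the Chd7f/f leukemias, so every array held a high level of the gene behind the sort. Cbfb differed by 0.21 (SE 0.17) between genotypes, and Kit by 0.19 (SE 0.24). Chd7 was at 6.17, 7.54 and 5.32 in the control and at 5.48, 6.50 and 5.91 in the Chd7f/f leukemias, a difference of -0.38 (SE 0.58). All 3 missed the threshold, with a limma adjusted p of 0.9998 each. Where this probe set lies relative to the deleted part of Chd7 is not known here, and its level does not check the deletion.

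One leukemia stood apart for the mitosis genes, and the genotype comparisons of the mitosis, other pathway and replication genes below are given with and without it. All 45 members had their lowest level in Chd7f/f replicate 1, an array that was the lowest of the 6 for 27.7% of all tested genes. In that leukemia 37 of the 45 members were at least 1 lower than the mean of the other 5 arrays, against 4.39% of tested genes, and 22 members were at least 2 lower. No member was that low on another array, where the shares of tested genes were 3.21% for control replicate 1, 0.187% for control replicate 2, 1.26% for control replicate 3, 1.97% for Chd7f/f replicate 2 and 0.322% for Chd7f/f replicate 3. Relative to the other arrays, the median member was at -1.97 in Chd7f/f replicate 1 and the median tested gene at -0.042.

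The remaining 5 leukemias lay closer to each other than to Chd7f/f replicate 1. Relative to the average over the arrays, the member mean ran from -0.15 in control replicate 2 to 0.53 in Chd7f/f replicate 2. Control replicate 2 was the second lowest array for 43 of 45 members, against 19.6% of tested genes, with a median of -0.12 relative to the others. The other 2 members, Ube2c and Cenpa, had control replicate 1 second lowest, against 15.0% of tested genes. Chd7f/f replicate 2 was the highest array for 29 members, against 17.6% of tested genes, with a median of 0.69. Control replicate 1 was highest for 8 members (24.4% of tested genes), control replicate 3 for 6 (12.6%) and Chd7f/f replicate 3 for 2 (11.6%). The lowest and the highest leukemia for most mitosis genes thus carried the same genotype.

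**Figure D1:**
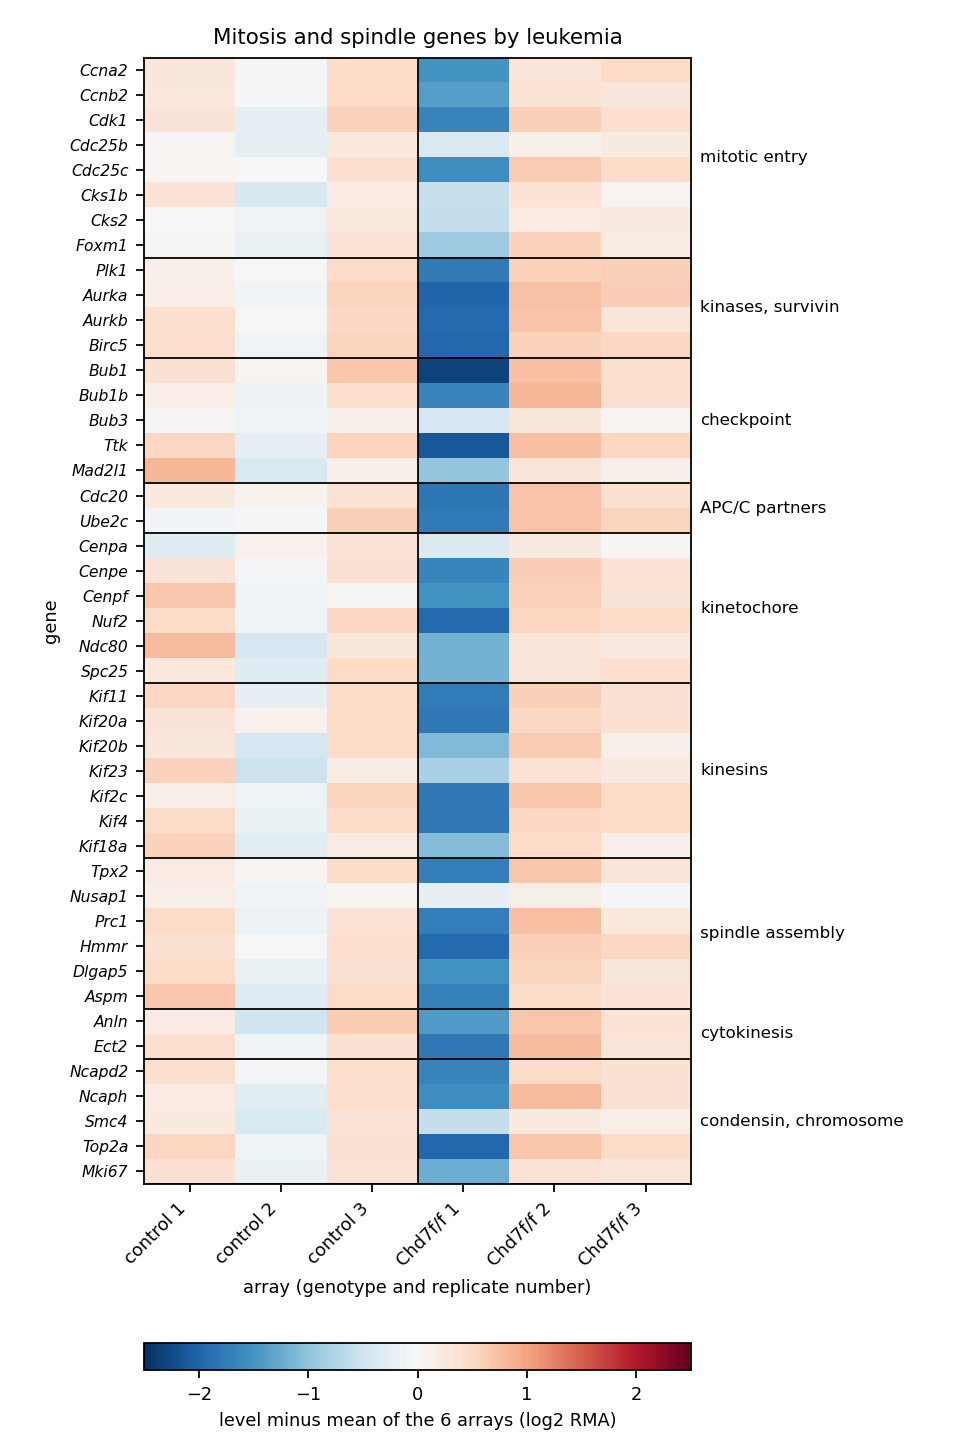
Each row is 1 of the 45 measured mitosis and spindle genes, grouped by role, and each column 1 array; colour gives the level minus the gene's mean over the 6 arrays (log2 RMA, blue lower, red higher). The column of Chd7f/f replicate 1 is blue in all 45 rows, and palest for Nusap1, Cenpa, Cdc25b and Bub3.

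**Figure D2:**
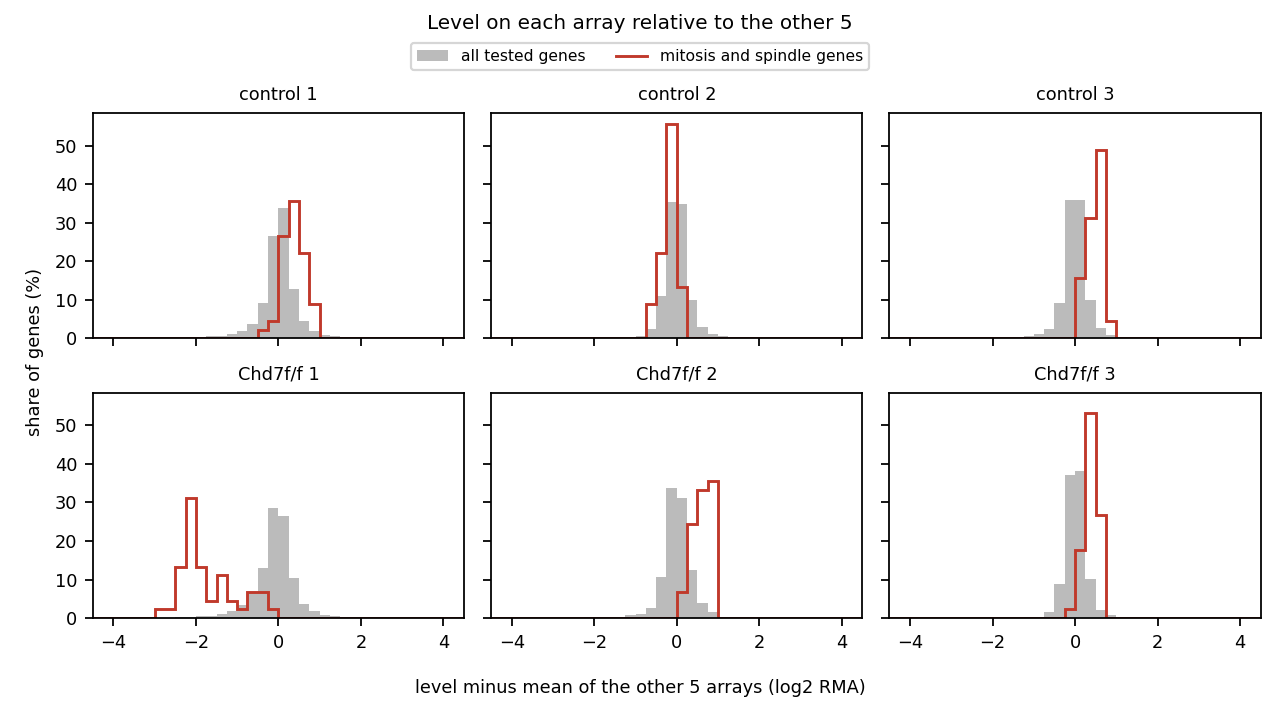
For each array, the level of a gene minus its mean on the other 5 arrays (log2 RMA, horizontal axis) is shown as the share of genes per bin (%, vertical axis), grey for all 15526 tested genes and red for the 45 members. In Chd7f/f replicate 1 the members centre on a median of -1.97 and the tested genes on -0.042; in Chd7f/f replicate 2 the members lie to the right of 0, with a median of 0.69.

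The promoters of the members were read for the letters that G2 and mitosis genes are known to share. RefSeq windows of GRCm38.p6, from 250 bases before to 50 after the start of the gene, were given for 37 of the 45 measured members. CHR was searched as TTTGAA or TTCGAA and the CCAAT box as CCAAT, on both strands. A CHR match was present in 29 of 37 windows, or 78.4%, against 14.2% of the 12052 tested genes with a window and 19.4% of all 27025 windows. A CCAAT match was present in 27, or 73.0%, against 37.9% of tested genes and 37.9% of all windows. Both were present in 25, or 67.6%, against 6.01% of tested genes and 7.70% of all windows. Of the 29 members with a CHR match, 26 had one within 50 bases of the start, or 89.7%, against 428 of 1711 tested genes with a match. A match describes letters and is not evidence of binding.

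In 7 members both elements lay wholly in the 100 bases before the start, and these are printed for that reason. Members with a CHR match only after the start are not printed. The layout differed among the 7: Cdc20, Bub3, Cdk1 and Cks1b had a CCAAT match after a CHR match, and Cdk1 and Cks1b had 2 CHR matches each. Each runs 5′ to 3′ on the strand of the gene and ends at the base before the start; capitals mark CHR and CCAAT matches of either orientation.
Cdk1: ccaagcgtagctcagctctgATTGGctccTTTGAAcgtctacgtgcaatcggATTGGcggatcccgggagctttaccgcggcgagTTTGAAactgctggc
Cdc20: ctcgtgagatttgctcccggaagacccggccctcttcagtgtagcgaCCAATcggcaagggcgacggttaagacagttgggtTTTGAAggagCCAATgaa
Ube2c: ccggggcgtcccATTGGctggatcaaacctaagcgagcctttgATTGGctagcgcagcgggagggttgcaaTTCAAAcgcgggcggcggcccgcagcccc
Kif11: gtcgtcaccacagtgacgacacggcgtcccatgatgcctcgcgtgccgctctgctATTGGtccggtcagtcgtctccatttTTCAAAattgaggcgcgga
Top2a: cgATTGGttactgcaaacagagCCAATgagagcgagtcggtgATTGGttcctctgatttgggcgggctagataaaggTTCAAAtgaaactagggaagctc
Bub3: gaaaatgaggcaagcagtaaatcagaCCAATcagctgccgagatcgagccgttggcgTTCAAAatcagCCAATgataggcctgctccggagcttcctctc
Cks1b: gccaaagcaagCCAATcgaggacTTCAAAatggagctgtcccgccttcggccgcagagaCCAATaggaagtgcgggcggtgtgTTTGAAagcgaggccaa

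On GRCm38.p6 these stretches are chr10:69352913-69353012 (minus strand) for Cdk1, chr4:118437344-118437443 (minus) for Cdc20 and chr2:164769829-164769928 (plus) for Ube2c. Kif11 is at chr19:37376282-37376381 (plus) and Top2a at chr11:99024190-99024289 (minus). Bub3 is at chr7:131560270-131560369 (plus) and Cks1b at chr3:89418292-89418391 (minus). All lie directly upstream of the annotated gene. In Chd7f/f replicate 1, Cdk1, Cdc20, Ube2c, Kif11 and Top2a were at -2.01, -2.16, -2.11, -2.09 and -2.36 relative to the other arrays. Bub3 and Cks1b, with the same 2 elements, were at -0.49 and -0.68. The presence of both elements was thus found in members with large and with small differences: in 17 of 23 windows of members with a range over the 6 arrays of at least 2, and in 4 of 6 windows of members with a range under 1.

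The genes of mitotic entry had a list mean of -1.07 in Chd7f/f replicate 1, relative to their average over the arrays, and between -0.15 and 0.39 on the other arrays. Ccnb2, a B-type cyclin, was at 10.26, 9.97 and 10.49 in the control and at 8.63, 10.34 and 10.29 in the Chd7f/f leukemias. Its Chd7f/f replicates 2 and 3 fell inside the range of the control, and the groups overlapped. Cdk1, the kinase the cyclins activate, was at 6.85 in Chd7f/f replicate 1 and between 8.27 and 9.12 elsewhere. Ccna2, which acts in S phase and at mitotic entry, had the same form, with 8.52 against 9.99 to 10.52.

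Other regulators of CDK1 differed among themselves. Cdc25b, a phosphatase that activates CDK1, was at 10.05, 9.78 and 10.28 in the control and 9.64, 10.16 and 10.25 in the Chd7f/f leukemias, while its paralog Cdc25c was at 5.39 in Chd7f/f replicate 1 and between 6.96 and 7.57 elsewhere. Cks2, a small CDK-binding protein, was at 10.75, 10.66 and 11.01 against 10.15, 10.95 and 10.96. That value comes from 3 probe sets with identical values on every array; another probe set of Cks2 had a lower mean and differed by -0.041 between genotypes, against -0.12. Foxm1, the transcription factor of the G2 and mitosis wave, was at 6.62 in Chd7f/f replicate 1 and between 7.34 and 8.11 elsewhere, a smaller gap than that of Cdk1.

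The mitotic kinases gave the lowest list mean of the 9 roles in Chd7f/f replicate 1, at -1.92. Aurkb, the kinase of the chromosomal passenger complex, was at 9.90, 9.47 and 9.99 in the control and at 7.53, 10.20 and 9.79 in the Chd7f/f leukemias. Plk1, the polo-like kinase of centrosome maturation and mitotic exit, was at 9.29, 9.16 and 9.63 and at 7.39, 9.73 and 9.75. For Aurkb Chd7f/f replicate 1 lay below and replicate 2 above all 3 controls, and for Plk1 replicates 2 and 3 both lay above them. Aurka, the spindle pole kinase, and Birc5, the survivin subunit of the passenger complex, were at -2.40 and -2.35 relative to the other arrays in Chd7f/f replicate 1. All 4 genes of this role were at least 2 lower there.

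Spindle checkpoint genes held both the largest and one of the smallest differences. Bub1, the checkpoint kinase that marks kinetochores, was at 8.05, 7.75 and 8.36 in the control and at 5.36, 8.43 and 8.08 in the Chd7f/f leukemias, a range of 3.07 that was the widest of the members. In Chd7f/f replicate 1 it stood 6.84-fold below the mean of the other arrays. Ttk, the kinase that starts checkpoint signalling, was at -2.55 and Bub1b, which encodes BUBR1, at -2.01 by that measure. Bub3, the partner that brings BUB1 and BUBR1 to kinetochores, was at 10.51, 10.38 and 10.61 against 10.07, 10.77 and 10.55, a range of 0.70. Mad2l1, whose product binds CDC20 in the checkpoint complex, was at -1.19 and was highest in control replicate 1, at 10.09. The list mean in Chd7f/f replicate 1 was -1.51.

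Cdc20 and Ube2c, the activator and the ubiquitin-conjugating enzyme of the anaphase-promoting complex, were alike. Cdc20 was at 9.83, 9.68 and 9.96 in the control and at 7.80, 10.31 and 9.996 in the Chd7f/f leukemias. Ube2c was at 8.45, 8.46 and 9.10 and at 6.75, 9.24 and 9.08. In both genes Chd7f/f replicate 2 was the highest array and Chd7f/f replicate 1 the lowest.

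Kinetochore and centromere genes had a list mean of -1.30 in Chd7f/f replicate 1 and between -0.14 and 0.43 elsewhere. Nuf2, a subunit of the NDC80 complex that grips microtubules, was at 9.60, 9.03 and 9.64 in the control and at 7.18, 9.67 and 9.60 in the Chd7f/f leukemias. Its complex partners Ndc80 and Spc25 were at -1.42 and -1.43 relative to the other arrays in Chd7f/f replicate 1, where Nuf2 was at -2.33. The kinetochore motor gene Cenpe was at -1.97 and Cenpf at -1.78. Cenpa, the histone H3 variant of centromeres, was at 9.65, 10.06 and 10.27 against 9.58, 10.18 and 9.99, so that its level in Chd7f/f replicate 1 was within 0.1 of that in control replicate 1.

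Of the 7 kinesins, 6 were at least 1 lower in Chd7f/f replicate 1. Kif11, the motor that pushes spindle poles apart, was at 10.19, 9.48 and 10.13 in the control and at 7.93, 10.27 and 10.06 in the Chd7f/f leukemias. Kif20a, a motor of the central spindle, was at 9.40, 9.17 and 9.58 and at 7.30, 9.59 and 9.46. Kif23, the motor subunit of centralspindlin, was at 9.88, 8.75 and 9.49 and at 8.49, 9.65 and 9.51. Its level in Chd7f/f replicate 1 was at -0.97 relative to the other arrays, and close to that of control replicate 2. Kif2c and Kif4 were each at -2.14, and Kif18a and Kif20b each at -1.31.

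Spindle assembly factors had a list mean of -1.46 in Chd7f/f replicate 1. Tpx2, which activates Aurora A on microtubules, was at 9.78, 9.64 and 10.04 in the control and at 7.87, 10.29 and 9.89 in the Chd7f/f leukemias. Aspm, a spindle pole protein, was at 8.16, 7.16 and 7.97 and at 5.80, 7.95 and 7.85. Hmmr, Prc1 and Dlgap5 were at -2.32, -2.08 and -1.81 in Chd7f/f replicate 1 relative to the other arrays. Nusap1, which binds and bundles spindle microtubules, was the exception at 9.60, 9.35 and 9.51 against 9.24, 9.59 and 9.40. Its range of 0.35 was the narrowest of the members, and its RefSeq window held neither CHR nor CCAAT. The same was true of 5 members that were much lower in Chd7f/f replicate 1, namely Birc5, Nuf2, Ncaph, Kif18a and Mad2l1, at -2.35 to -1.19.

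The cytokinesis genes were both at least 1 lower in Chd7f/f replicate 1. Ect2, the exchange factor that activates RhoA at the division plane, was at 10.21, 9.70 and 10.17 in the control and at 8.01, 10.59 and 10.09 in the Chd7f/f leukemias. Anln, the scaffold protein anillin, was at 8.31, 7.61 and 8.74 and at 6.70, 8.80 and 8.46. Control replicate 2 was the second lowest array for both.

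Condensin and chromosome genes closed the series at a list mean of -1.40 in Chd7f/f replicate 1. Top2a, the topoisomerase that untangles sister chromatids, was at 10.24, 9.60 and 10.08 in the control and at 7.74, 10.41 and 10.16 in the Chd7f/f leukemias. Mki67, the gene of the proliferation marker Ki-67, was at 11.86, 11.30 and 11.83 and at 10.22, 11.82 and 11.77. The condensin I genes Ncapd2 and Ncaph were at -2.005 and -1.854 relative to the other arrays, while Smc4, the ATPase subunit that both condensins share, was at 10.39, 9.78 and 10.47 against 9.56, 10.40 and 10.30. Smc4 thus differed by 0.91 over all arrays, where Top2a differed by 2.67.

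**Figure D3:**
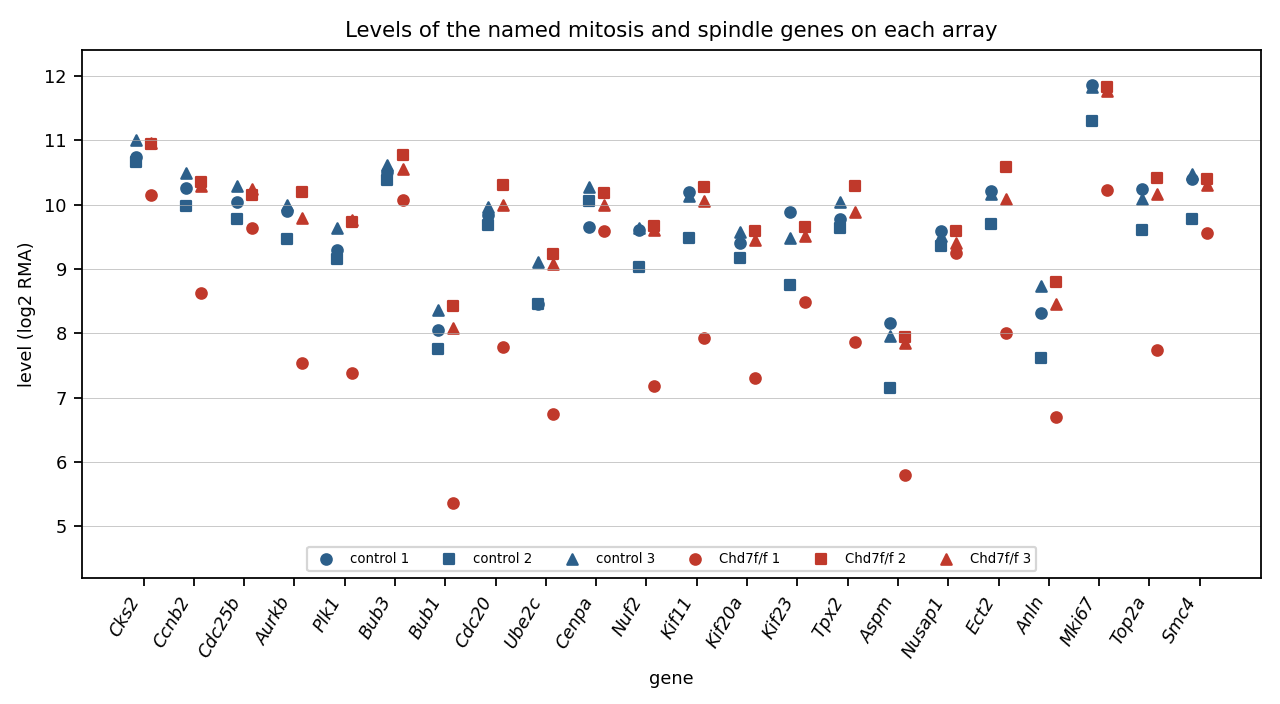
Levels (log2 RMA, vertical axis) of the 22 members named by rule, 1 point per array, blue for control and red for Chd7f/f, with the marker giving the replicate number. The red circle, Chd7f/f replicate 1, is the lowest point of every gene, from 3.07 below the highest point for Bub1 to 0.35 below for Nusap1.

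Members varied more between leukemias than most genes. The SD over the 6 arrays had a median of 0.83 for the members and 0.21 for all tested genes, and 36 of 45 members had an SD above 0.576, the 90th percentile of tested genes. The range over the arrays was at least 1 for 38 members, against 22.3% of tested genes, and at least 2 for 28, against 6.08%. The 7 members with a range under 1 were Cdc25b, Cks1b, Cks2, Bub3, Cenpa, Nusap1 and Smc4. Within the control leukemias the median range was 0.63, and within the Chd7f/f leukemias it was 2.18. The Chd7f/f range was wider for 44 of 45 members. Without Chd7f/f replicate 1 the median SD of the members was 0.29. The same figures over all tested genes are not given here.

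All 45 members had a lower mean in Chd7f/f than in control leukemias, against 56.3% of tested genes, and none passed the test. Adjusted p was 0.9998 for each (limma), and 0 members passed, as did 0% of tested genes. At an unadjusted p under 0.05 there were 0 members and 286 tested genes, or 1.84%. Differences ran from -0.76 for Bub1 to -0.022 for Cdc25b, with a median of -0.44 for the members and -0.027 for all tested genes. Their SE ran from 0.14 to 0.80, and Ccnb2 was the 1 member whose difference, -0.49 (SE 0.48), was larger than its SE. Bub1 had a mean of 8.05 ± 0.30 in the control and of 7.29 ± 1.68 with Chd7f/f (SD, n = 3 per genotype). Kif20a was at 9.38 ± 0.21 and 8.78 ± 1.28, Aurkb at 9.79 ± 0.28 and 9.18 ± 1.44, and Nuf2 at 9.42 ± 0.34 and 8.82 ± 1.42 (SD, n = 3 each). No member had values that did not overlap between genotypes, where 4.37% of tested genes were lower and 2.45% higher without overlap.

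The direction rested on 1 leukemia. Without Chd7f/f replicate 1 all 45 members were higher in Chd7f/f than in control leukemias, against 49.7% of tested genes. Differences then ran from 0.013 for Nusap1 to 0.48 for Ube2c, with a median of 0.23. Again 0 passed (limma, adjusted p = 0.9991 for each). At an unadjusted p under 0.05 there were 0 members and 339 tested genes. Bub1 went from -0.76 to 0.20, Aurkb from -0.61 to 0.21, Cdc20 from -0.46 to 0.33, Top2a from -0.54 to 0.31 and Nusap1 from -0.071 to 0.013. Without control replicate 1, 43 members were lower, and without control replicate 3, 39; without each of the other arrays in turn all 45 were lower. With array weights, which limma estimated from each array's scatter around its genotype mean in these data, 31 members were lower and 14 higher. Chd7f/f replicate 1 received the lowest weight, 0.42, so the weighted fit is no independent check on that array. The mean difference over the members was -0.38 with all arrays, -0.044 with array weights and 0.24 without Chd7f/f replicate 1.

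**Figure D4:**
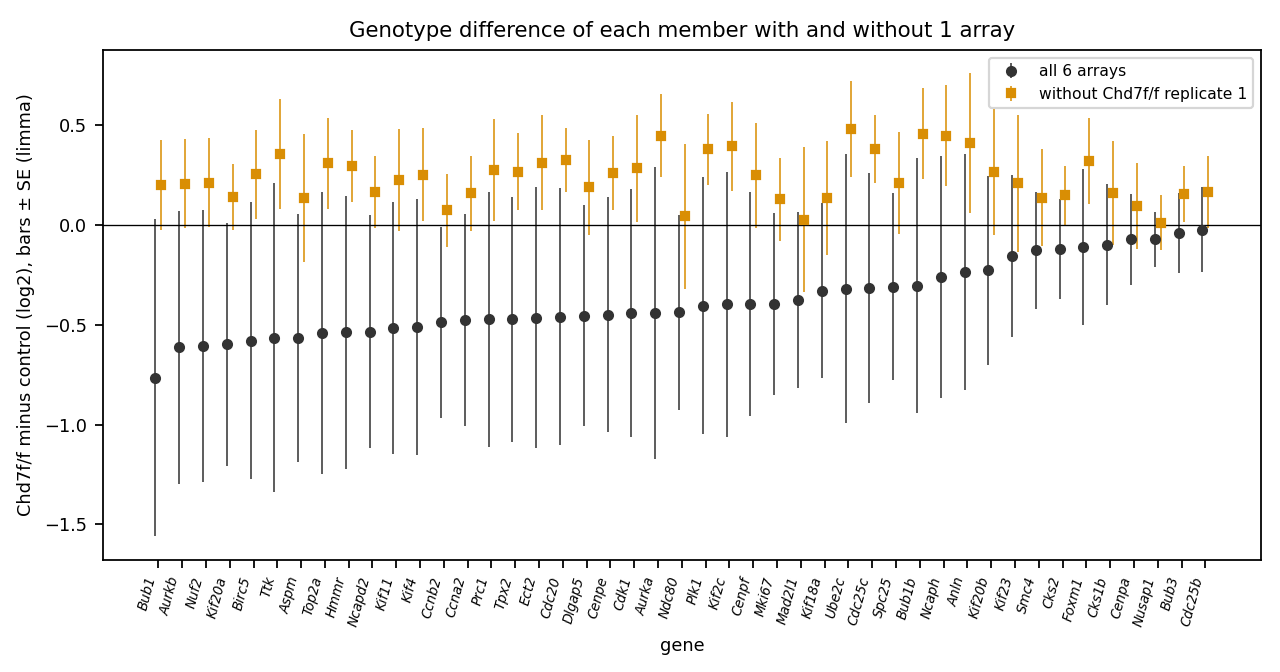
Chd7f/f minus control (log2, vertical axis, bars ± SE from limma) for each of the 45 members, with all 6 arrays in black and without Chd7f/f replicate 1 in orange. Black points run from -0.76 to -0.022 and orange points from 0.013 to 0.48, on opposite sides of 0 for every member.

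By role, the mean difference with all arrays was -0.51 for the kinases, -0.43 for spindle assembly, -0.41 for the checkpoint, -0.39 for kinesins and -0.39 for the partners of the anaphase-promoting complex. It was -0.38 for kinetochores, -0.37 for condensin and chromosome genes, -0.35 for cytokinesis and -0.26 for mitotic entry. Without Chd7f/f replicate 1 the 9 means were all above 0, from 0.18 for kinetochores to 0.41 for the partners of the anaphase-promoting complex. The SD of the member mean was 0.30 over the control and 1.08 over the Chd7f/f leukemias (n = 3 each). Each difference with all arrays was thus smaller than this spread between Chd7f/f leukemias. That spread includes Chd7f/f replicate 1 and does not apply to the means without it.

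Other genes of the pathway were lower in that leukemia too, though to different degrees. Their lists were chosen by function, with earlier results of these data known. Of 106 such genes measured, 87 had a lower and 19 a higher mean in Chd7f/f leukemias, against 56.3% of tested genes lower. Of the 106, 0 passed the test (limma, adjusted p) or an unadjusted p under 0.05, against 0% and 1.84% of tested genes. Without Chd7f/f replicate 1 the direction turned, with 20 lower and 86 higher, against 49.7% of tested genes higher. The mean difference was then 0.10 in place of -0.22. In Chd7f/f replicate 1, 44 of the 106 were at least 1 lower than on the other arrays, against 4.39% of tested genes. Among other kinetochore and checkpoint genes it was 19 of 33 and among other spindle, centrosome and cytokinesis genes 16 of 25. Nsl1, of the MIS12 complex, was at 7.79, 7.10 and 7.55 in the control and at 5.61, 7.42 and 7.09 in the Chd7f/f leukemias. Melk, a kinase gene of the G2 and mitosis wave, was at 8.33, 7.55 and 8.37 and at 5.66, 8.25 and 8.21. Nsl1 differed by -0.78 (SE 0.48) and Melk by -0.71 (SE 0.73) between genotypes. Of the others named by rule, Cenpw differed by -0.23, Ckap5 by -0.37, Ncapd3 by -0.45, Smc2 by -0.56 and E2f4 by -0.29, and Kif2a was 0.25 higher. Without Chd7f/f replicate 1 Nsl1 was at -0.23, Cenpw at -0.061, Ckap5 at -0.17, Ncapd3 at -0.15 and Kif2a at 0.0945, while Melk (0.14), Smc2 (0.0044) and E2f4 (0.0295) changed sign.

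Core subunits of the anaphase-promoting complex and cohesin genes were closer to the other arrays. Among 14 core subunits of the anaphase-promoting complex, 0 were at least 1 lower in Chd7f/f replicate 1, against 4.39% of tested genes, with values from -0.95 to 0.34. Of the 14, 8 had a lower and 6 a higher mean in Chd7f/f leukemias, against 56.3% of tested genes lower. Without that leukemia 5 were lower and 9 higher, against 49.7% of tested genes higher. Anapc13 and Cdc26 differed by -0.24 and -0.15 between genotypes, and by -0.087 and -0.17 without it. The 9 genes of cohesin, its loaders and release factors ran from -0.70 to 0.36 in that leukemia, also with 0 at least 1 lower. In lists this short, counts of 0 are near the share of tested genes and do not set these complexes apart from other genes. Cdca5, the cohesion factor sororin, was at -1.85 in Chd7f/f replicate 1. These groupings by complex were made after the values were seen.

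DNA replication genes are the closest relatives of the mitosis genes in the cell cycle, expressed one phase earlier. Of 40 measured replication genes 39 had a lower and 1 a higher mean in Chd7f/f leukemias, against 56.3% of tested genes lower. In Chd7f/f replicate 1, 31 were at least 1 lower than on the other arrays, against 4.39% of tested genes. None of the 40 passed the test, and Dtl and Ccne1, named by rule, differed by -0.75 (SE 0.54) and -0.66 (SE 0.44). Without Chd7f/f replicate 1, 10 replication genes were lower and 30 higher, against 49.7% of tested genes higher. Their mean difference was then 0.050 in place of -0.48, and Dtl and Ccne1 were at -0.20 and -0.14. The mean of the mitosis genes minus that of the replication genes was -0.24, -0.035 and 0.12 in the control and -0.12, 0.17 and 0.11 in the Chd7f/f leukemias. The genotypes differed in it by 0.10 (exact two-sided permutation test, p = 0.6, n = 3 each), where 0.1 is the smallest p this design can give. Both lists were chosen with earlier results known, so this p cannot show that mitosis and replication genes behave alike. In Chd7f/f replicate 1 the list mean was -1.43 for mitosis and -1.31 for replication, and in control replicate 1 it was 0.32 and 0.56.

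Marker genes of the cell types that a spleen sort could hold were set beside these values. Erythroid markers were lower in Chd7f/f replicate 1 and higher in control replicate 1, with means of -0.87 and 0.98 over 10 measured markers and between -0.39 and 0.29 elsewhere; their summed level, as the log2 of summed linear values, was 13.8 to 14.6 in the control and 13.8 to 14.1 in the Chd7f/f leukemias. Tfrc, the transferrin receptor gene, which dividing cells use too, was at 11.06, 7.67 and 9.03 in the control and 6.36, 8.14 and 9.46 in the Chd7f/f leukemias, while Klf1, the erythroid transcription factor, was between 9.32 and 10.47 on all arrays. Of the 10 markers, 8 were lowest in Chd7f/f replicate 1, against 27.7% of tested genes. Relative to the other arrays, Tfrc, Slc4a1 and Epb42 were at -2.72, -2.28 and -1.86 there. Car2 was at -0.19 by that measure, and Car1 went the other way, at 0.30. In control replicate 1 Slc4a1 was at 4.39 and Car1 at -1.04 relative to the other arrays.

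Progenitor markers went the other way. Their mean was 0.66 in Chd7f/f replicate 1 and between -0.46 and 0.21 elsewhere, and none of 8 was below the other arrays there. Their summed level was 13.1 to 13.3 in the control and 13.0 to 13.7 in the Chd7f/f leukemias. Cd34, a surface protein of stem and progenitor cells, was at 6.05, 7.64 and 5.77 in the control and at 9.47, 5.61 and 6.87 in the Chd7f/f leukemias. Cd34 and Kit were therefore both highest, and the mitosis genes lowest, in the same leukemia. Control replicate 2, second lowest for 43 mitosis genes, was second highest for both, but the other 6 progenitor markers were below the other arrays there, from -0.75 for Mpo to -0.22 for Gata2, and the list mean was -0.16.

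Markers of other cells were also read on each array. Monocyte and macrophage markers had a mean of 0.30 in Chd7f/f replicate 1 and 0.76 in Chd7f/f replicate 3, and their summed level was 9.75 to 10.8 in the control and 10.1 to 11.4 in the Chd7f/f leukemias. Neutrophil markers were at -0.17 and 0.80 in these leukemias, with summed levels of 7.94 to 8.61 and 8.19 to 9.34, and lymphocyte markers at 0.016 and 0.019, with summed levels of 8.18 to 9.18 and 8.34 to 8.55. Megakaryocyte markers were at -0.27 and 0.014, with summed levels of 10.5 to 11.2 and 9.56 to 10.2, and stromal and endothelial markers at 0.11 and -0.069, with summed levels of 7.64 to 9.43 and 7.81 to 8.51. No marker is at 0 on this scale. Of the 11 lymphocyte markers, 6 passed the filter on low values, among them the T cell gene Cd3e, between 4.99 and 5.46 on all arrays. Control replicate 2 had the B cell gene Cd79a at 7.18, where the other arrays ran from 4.97 to 5.26, and Nkg7, a gene of cytotoxic lymphocytes, was at 7.96 there and between 6.51 and 7.24 elsewhere. The part that the mix of cells plays in the mitosis values was not tested.

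**Figure D5:**
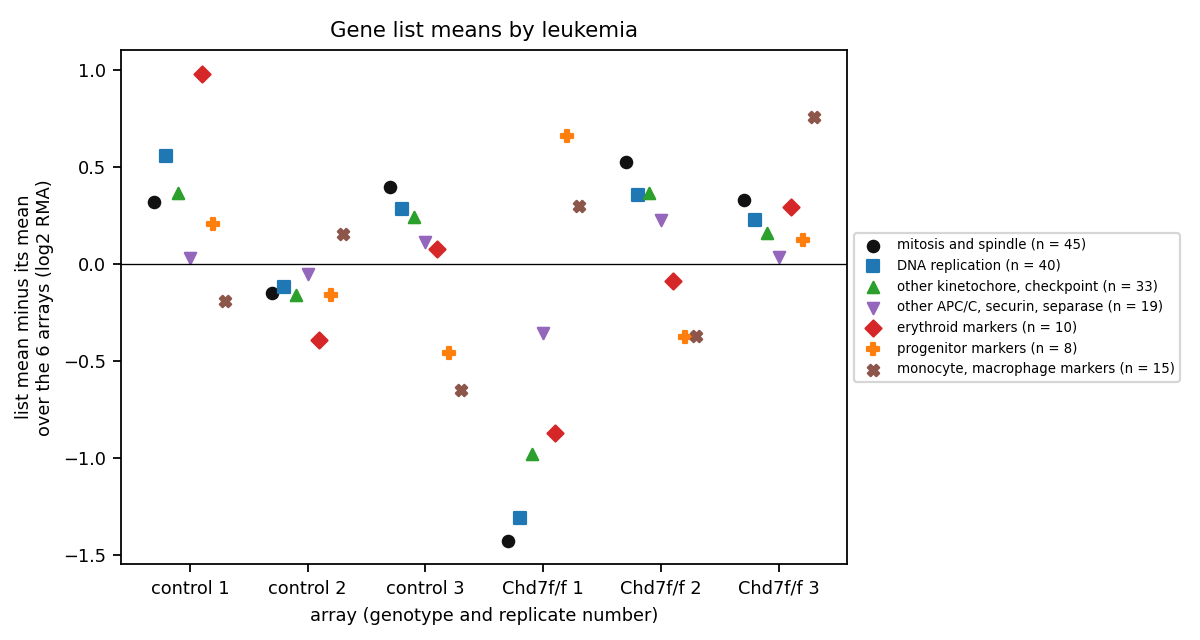
Mean of each gene list minus its average over the 6 arrays (log2 RMA, vertical axis) on each array, 1 point per list, with the number of measured genes in the key. In Chd7f/f replicate 1 mitosis (-1.43), replication (-1.31) and erythroid genes (-0.87) lie below 0 and progenitor genes (0.66) above it; in the other leukemias mitosis genes lie between -0.15 and 0.53.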

How the data were processed

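The authors deposited log2 levels, 1 per probe set and array, for 6 arrays. The submitters' processing notes name Affymetrix Expression Console with RMA but give neither version nor settings. RMA evens out the arrays' distributions, so a difference in total RNA cannot be seen after it. Of 41345 probe sets, 23521 carried 1 symbol, 1814 carried more and 16010 carried none in the annotation given. Entrez identifiers of 21994 out of 22180 genes were found in RefSeq's GRCm38.p6 table and gave current symbols. Each gene was read from its probe set of highest mean, and testing kept means from the 30th percentile (4.13) upwards. Detection calls are not analysed here.

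Groups came from the sample titles. The genotype test was lmFit and eBayes of limma 3.58.1 (R 4.3.3) with no covariate and Benjamini-Hochberg adjustment over every gene tested, after being tested on simulated data. Each difference subtracts control from Chd7f/f. Members named in full are, per role, those of highest mean, largest difference and smallest range; pathway genes named are the 2 of smallest p per list. Members, pathway lists and marker lists were chosen with earlier results of these data known. The alternatives changed normalization, centring, filter, probe set choice, prior, array weights, replicate block or the arrays included. Some listed marker genes are not reported here. The labels used here give no batch.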

Additional observations from a re-analysis of the deposited data

How the results depend on the processing

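By limma, no gene passed an adjusted p of 0.05 under any of the 15 alternatives. The count at an unadjusted p under 0.05 was 530 without a filter, 159 at the stricter filter and 571 with array weights, and 270 to 477 when 1 array was left out, against 286; it was 477 without control replicate 2. With the replicate block it was 332 and the count of lower members 45. Correlations of same-numbered arrays' deviations were 0.027, -0.025 and 0.034, and those of differently numbered arrays ran from -0.0995 to 0.089. These correlations cannot show whether the numbers pair the arrays. With no gene passing an adjusted p of 0.05, there was no call for the block to change. Leaving out 1 array gave 0 to 45 lower members, 30 to 133 lower pathway genes, replication included, and a median SD of 0.29 to 0.93. Without both arrays numbered 1 these were 1, 18 and 0.32. In that fit 1 member, Cenpf, was at an unadjusted p under 0.05 (limma), as were 371 of the 15526 tested genes. The mean difference ran from -0.74 to 0.24 when 1 array was left out, and by role from -0.52 to 0.21 for mitotic entry, -0.96 to 0.32 for kinases, -0.81 to 0.24 for checkpoint, -0.84 to 0.41 for anaphase-promoting complex partners, -0.69 to 0.18 for kinetochores, -0.76 to 0.23 for kinesins, -0.80 to 0.20 for spindle assembly, -0.81 to 0.36 for cytokinesis and -0.72 to 0.24 for condensin. Without both arrays numbered 1 it was 0.31, and by role 0.23 for mitotic entry, 0.34 for kinases, 0.33 for checkpoint, 0.35 for anaphase-promoting complex partners, 0.27 for kinetochores, 0.34 for kinesins, 0.29 for spindle assembly, 0.43 for cytokinesis and 0.32 for condensin. With array weights the anaphase-promoting complex partners were at 0.017, and Cks2 at 0.006, Cdc25b at 0.059, Plk1 at 0.056, Bub3 at 0.018, Ube2c at 0.058 and Kif23 at 0.078. With quantile normalization Cdc25b was at 0.0005. Single genes that changed sign when 1 array was left out ran from -0.26 to 0.15 for Cks2, -0.78 to 0.075 for Ccnb2, -0.15 to 0.17 for Cdc25b, -1.13 to 0.21 for Aurkb, -0.80 to 0.38 for Plk1, -0.19 to 0.16 for Bub3, -1.33 to 0.20 for Bub1, -0.93 to 0.33 for Cdc20, -0.76 to 0.48 for Ube2c, -0.24 to 0.096 for Cenpa, -1.03 to 0.21 for Nuf2, -0.94 to 0.23 for Kif11, -1.0025 to 0.14 for Kif20a, -0.47 to 0.21 for Kif23, -0.94 to 0.27 for Tpx2, -0.94 to 0.14 for Aspm, -0.16 to 0.013 for Nusap1, -0.98 to 0.31 for Ect2, -0.64 to 0.41 for Anln, -0.67 to 0.13 for Mki67, -1.03 to 0.31 for Top2a, -0.35 to 0.14 for Smc4, -0.88 to 0.0044 for Smc2, -1.15 to 0.14 for Melk, -0.46 to 0.029 for E2f4, -0.89 to 0.22 for Chd7 and -0.041 to 0.36 for Kit. Without both arrays numbered 1, changed signs gave 0.12 for Cks2, 0.086 for Ccnb2, 0.17 for Cdc25b, 0.27 for Aurkb, 0.34 for Plk1, 0.16 for Bub3, 0.20 for Bub1, 0.33 for Cdc20, 0.37 for Ube2c, 0.30 for Nuf2, 0.36 for Kif11, 0.15 for Kif20a, 0.46 for Kif23, 0.25 for Tpx2, 0.34 for Aspm, 0.0696 for Nusap1, 0.41 for Ect2, 0.46 for Anln, 0.23 for Mki67, 0.44 for Top2a, 0.23 for Smc4, 0.22 for Smc2, -0.018 for Kif2a, 0.27 for Melk, 0.12 for Dtl and -0.10 for Kit. The difference of mitosis minus replication genes kept its sign, at 0.012 to 0.19 when 1 array was left out. The number of arrays, 3 per genotype, limits what differences can be told from the spread; array weights leave the mitosis minus replication difference and the SD without a value of their own.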
